A study of Arabidopsis thaliana with 18 samples.

Results

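The 10 transcripts described here belong to the glucosinolate-myrosinase system in leaves of Arabidopsis thaliana, namely the myrosinases TGG1 (AT5G26000) and TGG2 (AT5G25980), the transcription factors MYB28 (AT5G61420) and MYB29 (AT5G07690), and the synthesis enzymes BCAT4 (AT3G19710), MAM1 (AT5G23010), CYP79F1 (AT1G16410), CYP83A1 (AT4G13770), CYP83B1 (AT4G31500) and SUR1 (AT2G20610). These 10 genes were picked by locus from the 27628 in the deposited count table, and all 10 passed the filter on low counts that left 19493 genes. The choice was made with results of these libraries known, so the levels of the 10 genes are given as a description and were not tested. RNA sequencing covered 6 groups of 3 libraries each. They were wild type (WT) at day 0, WT at day 7 of a dark treatment, and the same days for ml2 and for ml5, lines labelled as knockdowns. The targeted transcripts, ML2 and ML5, encode Mei2-like RNA-binding proteins. The sources used here do not give how the knockdowns were made, the ecotype, the plant age or whether a line is 1 insertion. None of the 6 groups is labelled as kept in light until day 7. Darkness thus cannot be told apart from plant age or the day of sampling. Below, a change in the dark or a dark response means day 7 against day 0.

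Glucosinolates are sulfur-rich defence compounds of the cabbage order. Aliphatic ones start from methionine, which BCAT4 and MAM1 lengthen in the side chain before CYP79F1 makes an aldoxime and CYP83A1 oxidises it. Indolic ones start from tryptophan and pass through CYP83B1. SUR1, a C-S lyase, serves both branches. MYB28 and MYB29 activate the aliphatic branch. TGG1 and TGG2 encode thioglucosidases of leaves, kept in guard cells and in myrosin cells along the phloem, that split glucosinolates when tissue is damaged.

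TGG1 and TGG2 lie on chromosome 5 pointing towards each other (TAIR10.1, TGG2 at chr5:9072708-9075777 on the plus strand and TGG1 at chr5:9079452-9082384 on the minus strand), each with 12 exons in its longest coding model. Their coding sequences were 82.6% identical, and the longest stretch they shared without a mismatch was 55 bases. The 250 bases before each annotated start are shown because the pair had the same order of TMM-scaled levels over the 6 groups. MYB28 and MYB29 also shared an order of group means, as did CYP83A1 and SUR1, and their windows were not compared for shared runs. How often such runs occur between other promoters was not measured. Capitals mark runs of at least 10 bases that both windows hold. Those runs covered 49 of 250 bases, the longest being 21 bases, and sequences are RefSeq's, 5′ to 3′ on the gene's strand.
TGG1 chr5:9082385-9082634 (−): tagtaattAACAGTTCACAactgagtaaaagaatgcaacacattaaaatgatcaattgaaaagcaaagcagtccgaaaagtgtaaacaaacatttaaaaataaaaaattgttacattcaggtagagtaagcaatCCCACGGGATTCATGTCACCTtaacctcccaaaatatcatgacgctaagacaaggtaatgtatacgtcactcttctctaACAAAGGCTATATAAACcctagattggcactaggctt
TGG2 chr5:9072458-9072707 (+): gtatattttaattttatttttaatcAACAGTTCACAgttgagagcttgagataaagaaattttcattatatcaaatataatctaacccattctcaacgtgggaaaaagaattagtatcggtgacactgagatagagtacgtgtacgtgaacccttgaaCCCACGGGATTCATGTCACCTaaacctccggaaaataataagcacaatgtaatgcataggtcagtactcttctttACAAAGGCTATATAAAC
The motif CACGTG, the G-box bound by MYC-type factors and searched on both strands, was in the windows of CYP83A1 and SUR1, 2 of 10 members, against 6.49% of 27443 promoters of that length. Both windows are printed with CACGTG and, in SUR1, 1 match to GATAAG or its reverse complement in capitals. GATAAG was in 12.3% of all promoters and in 2 of 10 members, the other being CYP83B1. Further motifs searched were CANNTG, in 6 of 10 members and 55.3% of all promoters, TATCCA, in 2 and 13.6%, and AAAATATCT, in 0 and 2.36%. A match is a string of letters and was not tested as a binding site.
CYP83A1 chr4:7992430-7992679 (−): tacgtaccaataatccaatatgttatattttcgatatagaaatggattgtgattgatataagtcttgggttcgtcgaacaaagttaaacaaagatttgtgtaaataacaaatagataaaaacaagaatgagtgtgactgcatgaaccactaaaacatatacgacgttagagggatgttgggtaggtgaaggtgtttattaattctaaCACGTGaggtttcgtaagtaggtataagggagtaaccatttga
SUR1 chr2:8880441-8880690 (−): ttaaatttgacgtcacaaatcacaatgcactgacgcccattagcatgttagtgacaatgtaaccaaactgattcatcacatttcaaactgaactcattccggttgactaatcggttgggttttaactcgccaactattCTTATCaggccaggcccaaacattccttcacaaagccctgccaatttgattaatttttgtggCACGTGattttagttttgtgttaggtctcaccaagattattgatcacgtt

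Libraries held 14914598 to 20417396 estimated counts, and levels are TMM-scaled CPM, the count of a gene relative to the scaled size of its library. ML2 was 61.2 ± 2.26 CPM (SD, n = 3) in WT and 6.35 ± 1.02 in ml2 at day 0, and ML5 was 208 ± 5.85 in WT and 1.21 ± 0.327 in ml5. For pairs of replicates the chi-square of their counts, divided by its degrees of freedom, ran from 1.77 to 5.92, but reached 13.3 and 8.97 for ml2 day 0 replicate 1 set against replicates 2 and 3. Leaving it out moved none of the 40 member values that involve that group by more than 0.103 on the log2 scale. Nothing states that replicates were separate plants, so errors and p-values measure the spread between these libraries. Leaf markers were present: the summed level of 4 mesophyll genes was 47100 to 47700 CPM in WT at day 0 and 954 to 969 at day 7. Of 5 root genes, RHD6 was at 0 in every library and COBL9 and EXP7 had means of at most 0.0913 CPM, while SCR was at 14 to 22.9 CPM and SHR at 1.7 to 7.5. With library sizes in place of TMM, the median of all genes moved up by 0.38 in WT over 7 days of dark, by 0.227 in ml2 and by 0.407 in ml5, and log2 values below are relative to TMM. Bulk leaf RNA cannot tell fewer cells of a type from less RNA per cell.

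**Figure D1:**
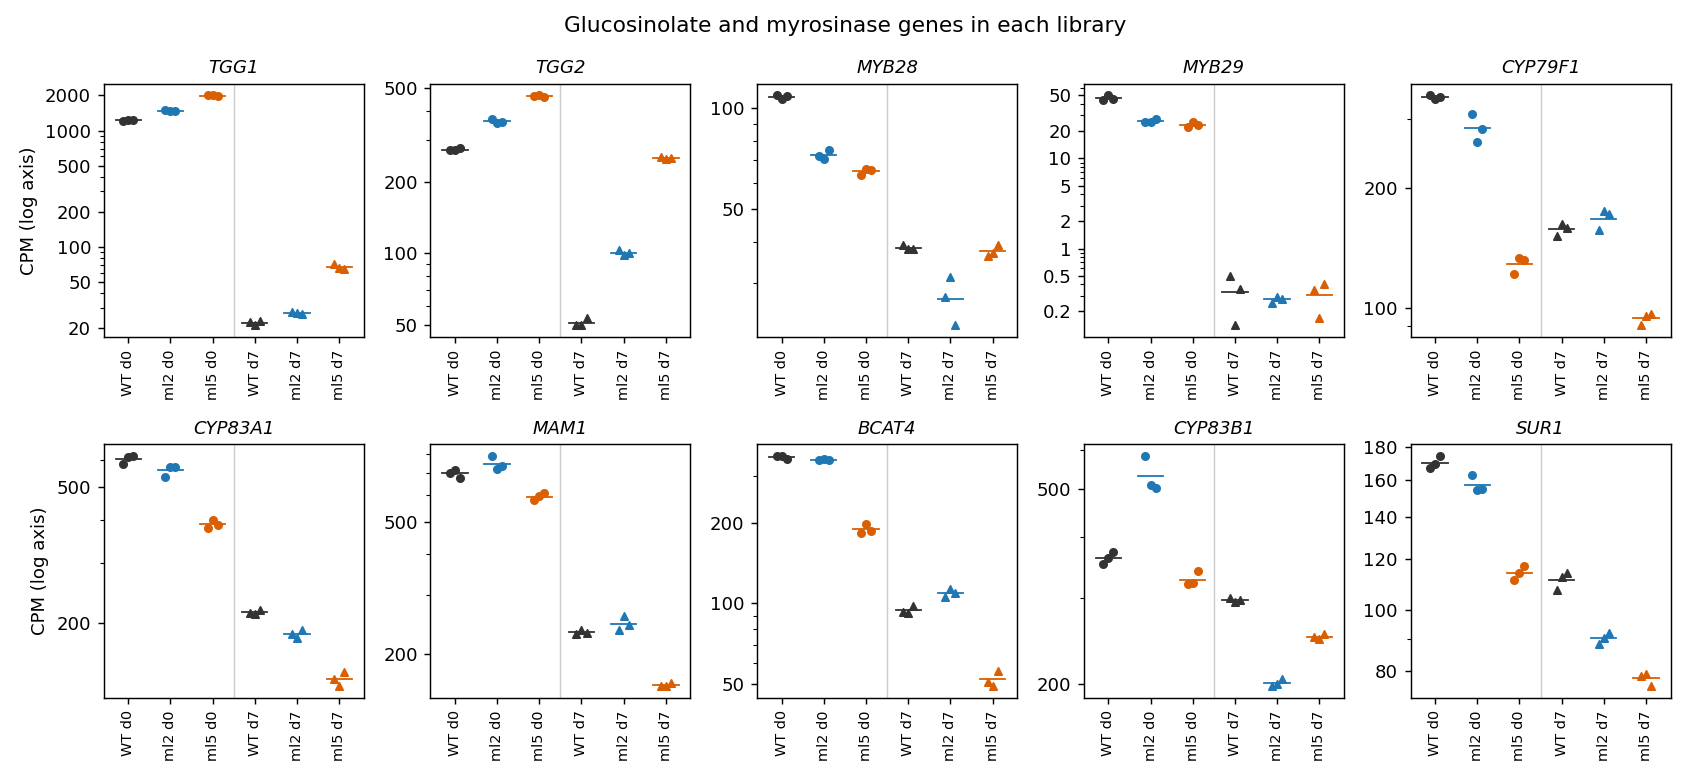
CPM of the 10 genes in every library (log axis, 1 panel a gene); points are libraries, circles day 0 and triangles day 7, black WT, blue ml2 and orange ml5, and lines are means of 3. In each genotype all day 7 points lie below all day 0 points of the same colour.

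All 10 transcripts were lower after 7 days of dark in WT, in ml2 and in ml5, with no overlap between the 3 libraries of day 7 and the 3 of day 0. With library sizes alone 9 were lower and 1, CYP83B1, higher in WT, 10 were lower in ml2 and 8 in ml5. Across all tested genes, 40.5% were lower without overlap in WT, 39.8% in ml2 and 41% in ml5, and the direction of the 10 genes was known when they were picked. The median log2 fold change of the 10 was -1.54 in WT, -1.60 in ml2 and -1.19 in ml5, and that of all tested genes was 0.0441, 0.000706 and 0.00195. In WT the drop under TMM ranged from 1.22-fold for CYP83B1 to 139-fold for MYB29. Summed markers of several cell types were lower at day 7 too. The 4 mesophyll genes went from a mean sum of 47400 to 960 CPM in WT, 32100 to 730 in ml2 and 41000 to 1570 in ml5, and 4 epidermis genes from 106 to 27.5, 81.2 to 26.8 and 89.4 to 28.7. The 6 phloem genes went from 616 to 426, 705 to 417 and 728 to 455, and the 7 guard cell genes from 142 to 111, 209 to 96.2 and 260 to 93. Genes within these phloem and guard cell sums did not share a direction in WT. The phloem gene SUC2 fell from 295 to 53.9 CPM, while APL rose from 36.5 to 76.5 and SWEET12 from 13 to 52.8. The guard cell gene CYP86A2 fell from 73.5 to 26.9, while KAT1 rose from 36.5 to 58.7. The part of these markers in the result was not tested.

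TGG1, the more abundant myrosinase at day 0, was far lower at day 7, where it still had 453 to 1649 counts a library. In WT it stood at 1199, 1234 and 1228 CPM at day 0 and at 22.8, 21.2 and 23.0 at day 7. In ml2 it was 1506, 1466 and 1468 at day 0 and 27.5, 26.8 and 26.5 at day 7. The ml5 libraries held 2004, 2014 and 1973 CPM at day 0 and 70.7, 66.5 and 64.7 at day 7. At each day the 3 genotypes were ordered ml5, ml2, WT from high to low, and no 2 neighbouring groups in the order of all 6 overlapped. What remained at day 7 was 1.83% of the day 0 level in WT, 1.82% in ml2 and 3.37% in ml5, or log2 changes of -5.77 ± 0.0452 (SE), -5.78 ± 0.044 and -4.89 ± 0.0402.

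Under TMM, TGG2 followed the same order of groups with a far smaller loss. Its WT libraries held 272, 272 and 278 CPM at day 0 and 49.6, 49.95 and 53.2 at day 7. In ml2 they held 369, 355 and 358 at day 0 and 103, 98.1 and 100 at day 7. The ml5 values were 463, 465 and 457 at day 0 and 254, 251 and 253 at day 7. Under TMM every ml5 library at day 7 was thus below the lowest WT library at day 0 but above every other day 7 library. TGG2 kept 18.6% of its day 0 level in WT, 27.8% in ml2 and 54.7% in ml5. The log2 changes were -2.43 ± 0.0434, -1.85 ± 0.0413 and -0.87 ± 0.0401, so the loss in ml5 was smaller than in WT, with a difference in log2 change of 1.56 ± 0.0591. With library sizes alone the ml5 change was -0.46, and ml5 was 0.77 above WT at day 0. TGG2 in ml5 at day 7 then lay above that in WT at day 0.

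The balance between both myrosinases turned over. Scaled by transcript length, TGG1 was 4.63 ± 0.0744 times TGG2 in WT at day 0 (SD, n = 3), 4.27 ± 0.0263 times in ml2 and 4.50 ± 0.00907 times in ml5. After 7 days of dark the ratio was 0.456 ± 0.0193 in WT, 0.280 ± 0.00451 in ml2 and 0.277 ± 0.0115 in ml5. All 9 day 0 libraries lay above 1 and all 9 day 7 libraries below it, and at day 7 every WT library was above every ml2 and ml5 library. A ratio within a library does not depend on the scaling. At 82.6% identity a part of the reads could fit both genes, and the sources used here do not say how the counting treated such reads. Of the 50-base stretches in the TGG1 coding sequence, 0.38% also occur in that of TGG2. The part of shared reads in the ratio was not tested.

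**Figure D2:**
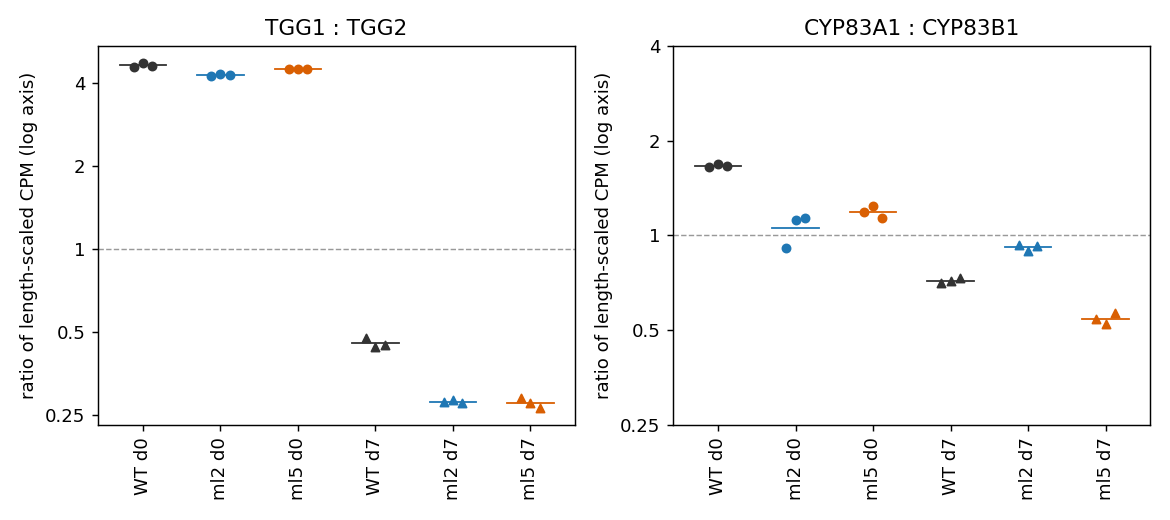
Ratio of 2 members within each library, each scaled by transcript length (log axis, dashed line at 1); left TGG1 to TGG2, right CYP83A1 to CYP83B1, circles day 0, triangles day 7, lines means of 3. The myrosinase ratio goes from 4.27 to 4.63 at day 0 to 0.277 to 0.456 at day 7, and the CYP83 ratio is below 1 in all 9 day 7 libraries and in 1 day 0 library, ml2 replicate 1 at 0.915.

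MYB29 was the member with the largest span, 172-fold between the highest and the lowest group mean. Its WT libraries held 44.7, 50.4 and 46.0 CPM at day 0 and 0.496, 0.140 and 0.352 at day 7. In ml2 it was 25.3, 25.6 and 27.6 at day 0 and 0.249, 0.293 and 0.277 at day 7. The ml5 libraries held 22.0, 25.5 and 23.4 at day 0 and 0.343, 0.169 and 0.404 at day 7. At day 0 both lines lay below WT and overlapped each other. Day 7 values rested on 3 to 11 counts in a library, near the floor of 3 counts (0.127 to 0.231 CPM), so a difference between genotypes was not detectable at this depth. The log2 change was -7.12 ± 0.314 in WT, -6.55 ± 0.347 in ml2 and -6.26 ± 0.315 in ml5.

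MYB28, the paralogous activator, kept far more of its transcript. WT libraries held 109, 106 and 109 CPM at day 0 and 39.1, 38.0 and 37.9 at day 7. The ml2 values were 71.9, 70.7 and 75.1 at day 0 and 27.2, 31.4 and 22.5 at day 7. In ml5 they were 63.2, 65.9 and 65.5 at day 0 and 36.3, 36.9 and 39.1 at day 7. At day 0 the order was WT, ml2, ml5 with no overlap, and at day 7 ml2 was lowest while WT and ml5 overlapped. The log2 change in the dark was -1.50 ± 0.0701 in WT, -1.43 ± 0.0733 in ml2 and -0.79 ± 0.0719 in ml5, the last being -0.39 with library sizes alone. Per length, MYB28 was 2.102 ± 0.158 times MYB29 in WT at day 0 (SD, n = 3).

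BCAT4, the aminotransferase that opens side-chain elongation, was 357, 357 and 347 CPM in WT at day 0 and 92.9, 92.0 and 97.4 at day 7. In ml2 it was 345, 347 and 345 at day 0 and 106, 114 and 109 at day 7. In ml5 it was 183, 198 and 187 at day 0 and 50.9, 49.0 and 55.6 at day 7. WT and ml2 overlapped at day 0, and ml5 was lowest at both days. The dark change was -1.91 ± 0.0483, -1.66 ± 0.0479 and -1.87 ± 0.0505 in WT, ml2 and ml5. The annotation places AT3G19700 on the opposite strand over part of BCAT4, and the strand setting of the counting is unknown, so reads of the 2 genes cannot be told apart there.

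MAM1, the methylthioalkylmalate synthase of the next step, was 702, 717 and 678 CPM in WT at day 0 and 229, 237 and 231 at day 7. Its ml2 libraries held 789, 721 and 735 at day 0 and 236, 260 and 244 at day 7. Those of ml5 held 580, 595 and 608 at day 0 and 160, 160 and 164 at day 7. Here ml5 was lowest at both days and ml2 overlapped WT at day 7. The log2 change was -1.59 ± 0.0434 in WT, -1.60 ± 0.0432 in ml2 and -1.88 ± 0.0437 in ml5.

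CYP79F1, which commits elongated methionine to glucosinolates, differed most between ml5 and WT at day 0. WT held 344, 336 and 341 CPM at day 0 and 152, 162 and 159 at day 7. The ml2 libraries held 308, 262 and 283 at day 0 and 157, 175 and 172 at day 7. In ml5 it was already at 122, 134 and 132 at day 0 and reached 90.2, 95.2 and 96.2 at day 7. Every ml5 library at day 0 was below every WT and ml2 library of day 7. The dark change was -1.11 ± 0.0542 in WT, -0.76 ± 0.054 in ml2 and -0.46 ± 0.0567 in ml5, the last -0.05 with library sizes alone. Its neighbour CYP79F2 shares 91.4% of aligned coding bases, and the longest common stretch, 100 bases of coding sequence, is printed because reads from it cannot be assigned to 1 gene by sequence.
CYP79F1 and CYP79F2, shared coding run: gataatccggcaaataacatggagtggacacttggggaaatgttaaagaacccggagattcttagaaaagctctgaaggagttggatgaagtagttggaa

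CYP83A1 takes up the aliphatic aldoximes made by CYP79F1. It was 585, 615 and 619 CPM in WT at day 0 and 213, 212 and 219 at day 7. In ml2 it was 538, 575 and 574 at day 0 and 185, 180 and 191 at day 7. The ml5 libraries held 380, 400 and 387 at day 0 and 136, 130 and 144 at day 7. At both days the order was WT, ml2, ml5 without overlap, but at day 0 the step from WT to ml2 went from -0.11 to 0.01 with library sizes alone. The proportional loss was close in the 3 genotypes, with 35.4%, 33.0% and 35.1% of the day 0 level left. Relative to WT, the response differed by -0.10 ± 0.0623 in ml2 and by -0.01 ± 0.0627 in ml5 on the log2 scale.

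CYP83B1, the enzyme at the same step of the indolic branch, had a pattern of its own among the 10. WT libraries held 352, 362 and 371 CPM at day 0 and 300, 294 and 297 at day 7. In ml2 it was 585, 510 and 502 at day 0 and 198, 200 and 205 at day 7, the highest of all groups before the dark and the lowest after it. The ml5 libraries held 320, 321 and 340 at day 0 and 250, 247 and 253 at day 7. The log2 change was -0.28 ± 0.0474 in WT, -1.40 ± 0.0474 in ml2 and -0.39 ± 0.0476 in ml5. Its direction in WT and in ml5 depended on the scaling, since library sizes alone gave 0.10 and 0.02. The response in ml2 minus that in WT was -1.12 ± 0.067, and -1.02 without the ml2 day 0 library that stood apart. Per length, CYP83A1 was 1.67 ± 0.0183 times CYP83B1 in WT at day 0 and 0.718 ± 0.0121 times at day 7 (SD, n = 3). In ml2 that ratio was 1.06 ± 0.124 and 0.917 ± 0.0209, and in ml5 1.19 ± 0.0527 and 0.544 ± 0.0207.

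SUR1 stood at 167, 169 and 174 CPM in WT at day 0 and at 108, 113 and 114 at day 7. In ml2 it was 163, 154 and 155 at day 0 and 88.5, 90.3 and 91.8 at day 7. In ml5 it was 111, 114 and 117 at day 0 and 78.8, 79.4 and 75.8 at day 7. Under TMM the ml5 libraries of day 0 overlapped the WT libraries of day 7. The dark change was -0.61 ± 0.0465 in WT, -0.80 ± 0.0467 in ml2 and -0.55 ± 0.0478 in ml5, and with library sizes alone -0.23, -0.58 and -0.14.

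**Figure D3:**
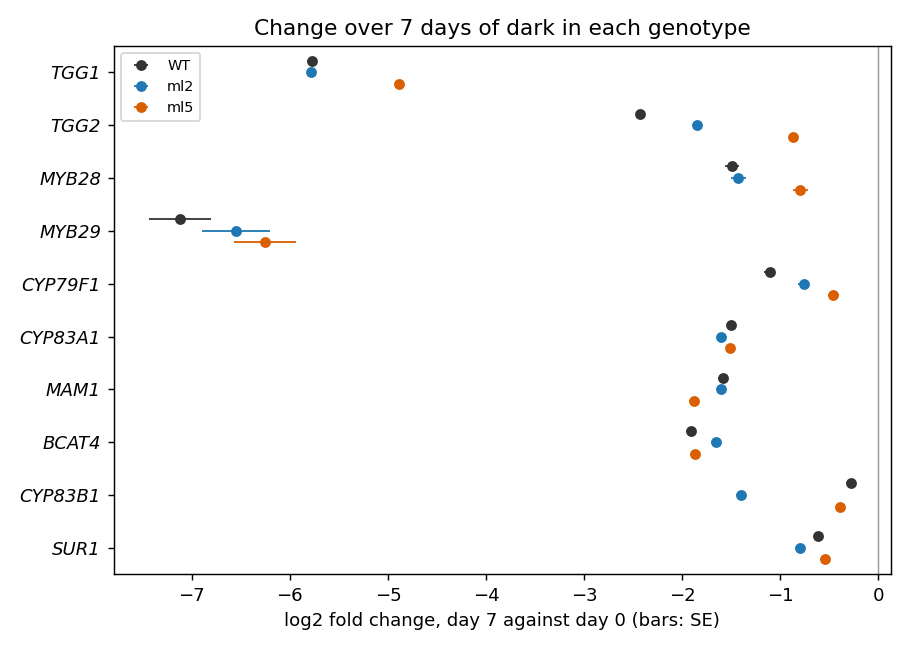
Log2 fold change of each gene, day 7 against day 0, with SE bars, for WT (black), ml2 (blue) and ml5 (orange). MYB29 and TGG1 lie farthest left in all 3 genotypes, TGG2 goes from -2.43 in WT to -0.87 in ml5, and CYP83B1 in ml2 lies at -1.40 apart from WT and ml5.

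At day 0, before the dark, ml5 held more myrosinase transcript and less of all 8 synthesis and regulator genes than WT. TGG1 was 1.64-fold and TGG2 1.69-fold the WT level (0.71 ± 0.038 and 0.75 ± 0.0404). CYP79F1 was at 38.0% of WT (-1.40 ± 0.0554), MYB29 at 50.4%, BCAT4 at 53.6%, MYB28 at 60.0%, CYP83A1 at 64.2%, SUR1 at 67.1%, MAM1 at 85.1% and CYP83B1 at 90.4%. None of the 10 overlapped between ml5 and WT, where 24.3% of all tested genes were higher and 23.8% lower without overlap. In ml2 at day 0, 4 members were higher and 5 lower without overlap, against 23.5% and 24.2% of all genes. TGG1 (0.28 ± 0.038), TGG2 (0.40 ± 0.0404), CYP83B1 (0.56 ± 0.0471) and MAM1 (0.10 ± 0.0428) were the higher ones, MAM1 being at 0.04 without the library that stood apart. MYB29 (-0.84 ± 0.0867) and MYB28 (-0.57 ± 0.0677) were the lowest relative to WT. With library sizes alone 3 members were lower, and CYP83A1 changed sign from -0.11 to 0.01.

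At day 7 the gap in the myrosinases between ml5 and WT was wider than at day 0, with TGG1 at 3.02-fold (1.59 ± 0.047) and TGG2 at 4.96-fold the WT level (2.31 ± 0.0431). CYP79F1 (-0.75 ± 0.0555), CYP83A1 (-0.65 ± 0.0449), MAM1 (-0.53 ± 0.0441), BCAT4 (-0.86 ± 0.051), CYP83B1 (-0.25 ± 0.0473) and SUR1 (-0.51 ± 0.0471) were lower in ml5, while MYB28 and MYB29 overlapped WT. So 2 members were higher and 6 lower, where 25% and 30.6% of all genes did so. In ml2, TGG2 (0.98 ± 0.0442), TGG1 (0.27 ± 0.0503) and BCAT4 (0.22 ± 0.0494) were higher, and MYB28, CYP83A1, CYP83B1 and SUR1 were lower, where 19.9% of all genes were higher and 20.3% lower without overlap. The 3 higher members became 5 without ml2 day 7 replicate 1. WT libraries are shared by these comparisons. At day 7 the mesophyll sum was also higher in ml5, 1560 to 1590 CPM against 954 to 969 in WT, and at day 0 it was lower, 40200 to 41600 against 47100 to 47700. The phloem sum at day 7 was 442 to 474 CPM in ml5 and 423 to 428 in WT. Of the phloem genes only SWEET11 had a higher mean in ml5 (263 against 196). SUC2 was at 52 against 53.9 CPM, APL at 63.2 against 76.5 and SEOR1 at 10.9 against 13.8. NAKR1 was at 27.3 against 33.4 and SWEET12 at 38.4 against 52.8. The part of either sum in the myrosinase levels was not tested.

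**Figure D4:**
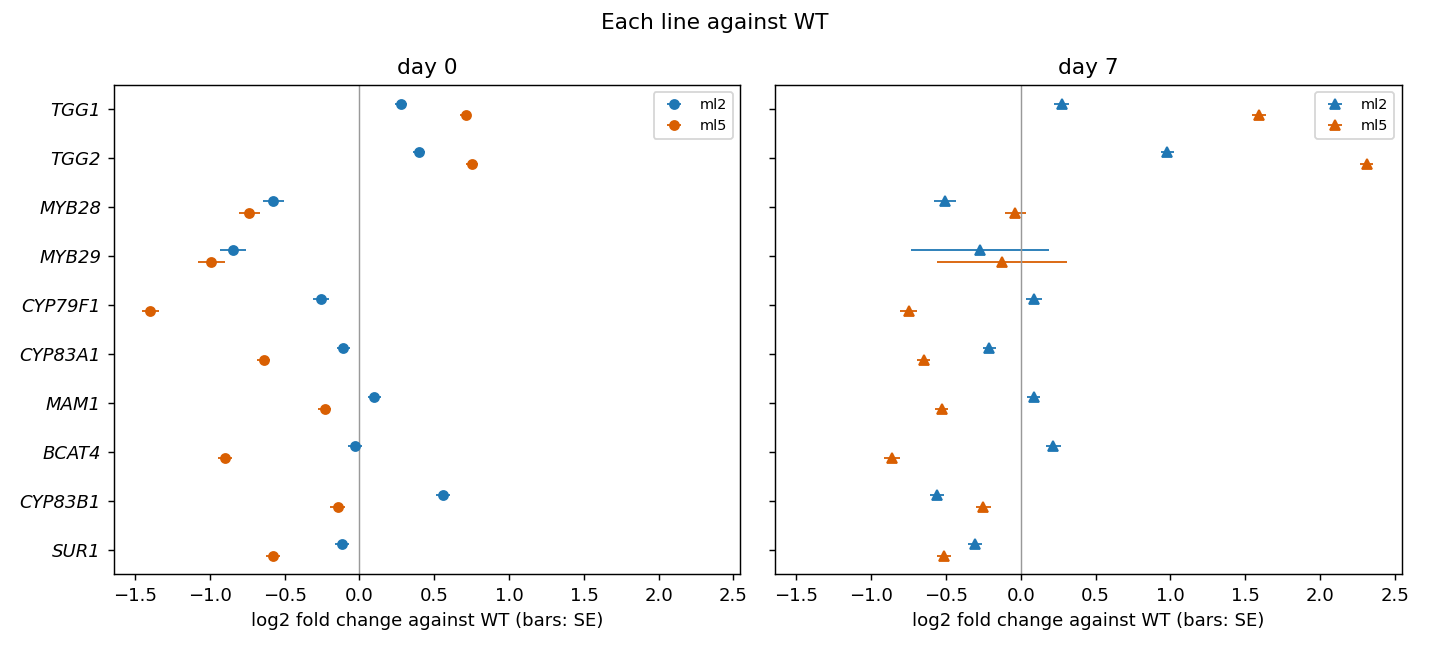
Log2 fold change of each gene in ml2 (blue) and ml5 (orange) against WT, with SE bars, at day 0 (left) and day 7 (right). Both myrosinases lie right of 0 in both lines at both days, up to 2.31 for TGG2 in ml5 at day 7, and CYP83B1 in ml2 goes from 0.56 to -0.56.

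Between the lines, ml5 against ml2 at day 0 had 2 members higher and 7 lower without overlap (18.4% and 17.8% of all genes), and at day 7 it had 4 higher and 5 lower (24% and 27.3%). TGG1 and TGG2 were higher in ml5 at day 7 2.497-fold and 2.52-fold. CYP79F1 was at 45.4% of ml2 at day 0 and at 55.9% at day 7. The summed level of the 7 guard cell genes was 138 to 147 CPM in WT, 194 to 236 in ml2 and 252 to 269 in ml5 at day 0, and 110 to 112, 92.1 to 101 and 91.4 to 94.9 at day 7. At day 0 CYP86A2 was at 73.5, 151 and 195 CPM in WT, ml2 and ml5. MYB60 was at 10.2, 6.69 and 5.92, KAT1 at 36.5, 30.9 and 35.2, and FAMA at 12.6, 11.7 and 14.9. KAT2 was at 3.03, 2.54 and 2.88, HT1 at 2.77, 2.01 and 2.67, and SLAC1 at 3.88, 4.22 and 3.92. None of the 7 was at 0 in all libraries of a group. Phloem markers, 6 genes, summed to 608 to 622 CPM in WT, 686 to 737 in ml2 and 722 to 738 in ml5 at day 0, and their part in the result was not tested.

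Other genes of the pathway came from 8 lists with 72 genes, chosen, like the members, with earlier results of these data known. Of these, 61 were tested with edgeR's quasi-likelihood test and a Benjamini-Hochberg adjusted p threshold of 0.05 over all 19493 genes. Counts of a list set beside the share of all genes are thus a description. In WT, 27 of the 61 rose and 29 fell in the dark, where 42% of all genes rose and 39.9% fell. In ml2 16 rose and 41 fell (39.6% and 40.2% of all genes), and in ml5 19 rose and 34 fell (39.7% and 40.1%), or 25 and 24 with library sizes alone. The median log2 change of the 61 was -0.06 in WT, -0.54 in ml2 and -0.40 in ml5, beside 0.0441, 0.000706 and 0.00195 for all genes. A call does not require that libraries of the 2 groups be apart, and MYC4 in the dark in WT was called with overlapping libraries.

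Of the 8 chain elongation genes tested, 8 fell in WT, 8 in ml2 and 7 in ml5, beside 39.9%, 40.2% and 40.1% of all genes, and the medians were -1.39, -1.01 and -1.23. The smallest of these falls was 0.45 in WT and 0.43 in ml5. Library sizes alone shift values up by 0.38 and 0.407 there, so these counts depend on the scaling. IMD1, an isopropylmalate dehydrogenase of the cycle, fell by 2.26 ± 0.0617 (log2 ± SE) in WT, from 242 to 50.7 CPM, and by 2.27 ± 0.0613 in ml2 and 2.59 ± 0.0649 in ml5. MAM3, a synthase beside MAM1, fell by 1.72 ± 0.0721, 1.84 ± 0.0696 and 2.14 ± 0.0759. BCAT3, a plastid aminotransferase, fell by 1.90 ± 0.0568 in WT and by 1.67 ± 0.0582 in ml2.

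In the aliphatic core 4 of 6 genes fell in each genotype, beside 39.9% to 40.2% of all genes, and 1 of the 4 in WT, SOT18, lost its call with library sizes alone (-0.07 against -0.45). The smallest of the 4 falls in ml5, 0.48, was also close to the shift of 0.407 with library sizes alone. GSTU20, a glutathione transferase, fell by 4.10 ± 0.0715 in WT, fell by 3.49 ± 0.0674 in ml2 and fell by 4.30 ± 0.0738 in ml5. Its WT level went from 288 to 16.9 CPM. GSTF11 fell by 3.12 ± 0.195, 2.58 ± 0.178 and 2.44 ± 0.23, and AT2G31790, listed as the UDP-glucosyltransferase of this branch, by 2.09 ± 0.0673, 1.80 ± 0.0715 and 1.44 ± 0.075. CYP79F2, the close copy of CYP79F1, rose instead, by 0.61 ± 0.0943, 0.69 ± 0.0972 and 1.07 ± 0.133, from a low level (11.5 to 17.6 CPM in WT). Shared reads make the split between CYP79F1 and CYP79F2 uncertain.

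The indolic and shared core was divided in WT, with 5 genes higher and 5 lower, close to the 42% and 39.9% of all genes. CYP79B2 and CYP79B3 both turn tryptophan into its aldoxime, the substrate of CYP83B1. CYP79B3 fell by 2.43 ± 0.0777 in WT, 3.30 ± 0.0798 in ml2 and 2.20 ± 0.0717 in ml5, whereas CYP79B2 rose by 1.14 ± 0.0673, 1.90 ± 0.0598 and 1.52 ± 0.0774. GSTF9, a glutathione transferase, fell from 741 to 295 CPM in WT (-1.33 ± 0.0373) and from 1112 to 272 in ml2 (-2.03 ± 0.0372). GGP3, a gamma-glutamyl peptidase, rose from 42.7 to 177 CPM in WT (2.05 ± 0.066).

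Of 4 other MYB factors in the list, 2 fell in WT and 2 rose, beside 39.9% and 42% of all genes. MYB76 fell by 2.97 ± 0.286 and MYB34 fell by 2.54 ± 0.14. MYB51 rose by 0.60 ± 0.0684, and MYB122 was at 0 in every WT library at day 0 and at a mean of 2.56 CPM at day 7. In WT 7 of the 10 factors rose, beside 42% of all genes, and MYC4 among them had overlapping libraries. MYC2 rose by 1.72 ± 0.0528 (78.5 to 258 CPM), MYC3 by 1.30 ± 0.0587 and OBP2 by 0.94 ± 0.0705. MYC factors bind the G-box and act with the MYB activators. In ml5 MYC2 rose by 0.63 ± 0.0527, and in ml2 it changed by -0.20 ± 0.0512. The transporter GTR2 rose in all 3 genotypes, by 2.54 ± 0.0484 in WT (79.7 to 463 CPM), 2.04 ± 0.0474 in ml2 and 1.92 ± 0.049 in ml5.

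Genes that act after or beside the myrosinases did not share one direction. NSP5, a nitrile specifier protein, rose from 76.8 to 1047 CPM in WT (3.77 ± 0.0444), and by 4.20 ± 0.0447 in ml2 and 3.60 ± 0.0466 in ml5. ESP, the epithiospecifier protein, fell from 27.8 to 0.555 CPM in WT (-5.64 ± 0.245), and by 4.78 ± 0.207 and 5.87 ± 0.291 in ml2 and ml5. The beta-glucosidase BGLU30 was 0 to 2 counts a library in WT at day 0 and 951 ± 2.76 CPM at day 7 (SD, n = 3), 1422 ± 15.3 in ml2 and 704 ± 9.94 in ml5. PEN2, an atypical myrosinase, rose by 0.19 ± 0.0394 in WT and fell by 0.73 ± 0.0393 in ml5. TGG4 and TGG5, the root myrosinases, had 0 counts in every library. CYP81F1, of a family that hydroxylates the indole ring, rose from 12.3 to 272 CPM in WT (4.46 ± 0.0738), and AT4G37432 lies on the opposite strand over part of it.

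**Figure D5:**
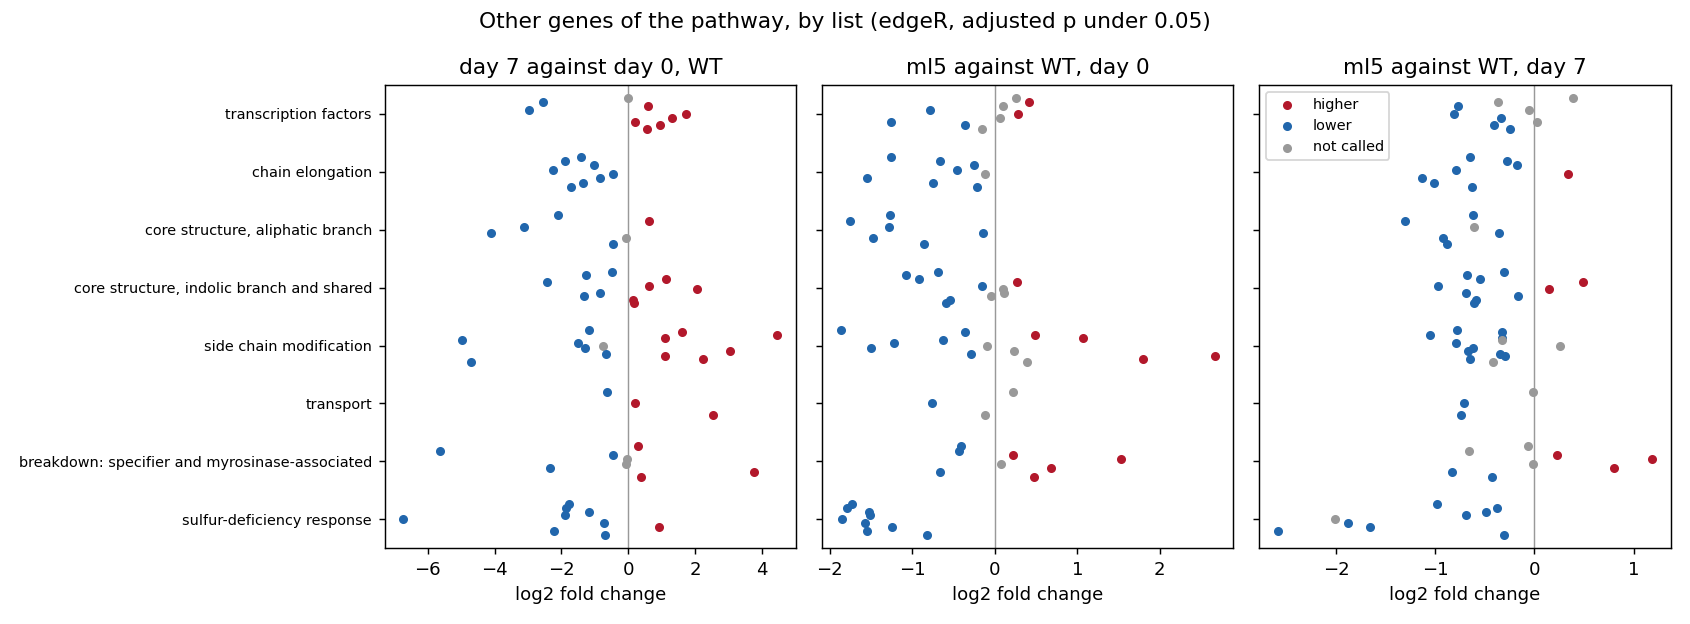
Log2 fold change of tested pathway genes other than the 10 members, by list. Panels are the dark in WT (left), ml5 against WT at day 0 (middle) and at day 7 (right). Red points were called higher, blue lower and grey not called. MYB122, at 0 in every WT library at day 0, is left out. The list of other beta-glucosidases is not drawn, and it holds PEN2 (ml5 against WT, 0.46 ± 0.0395 at day 0 and -0.46 ± 0.0391 at day 7). All 8 chain elongation points lie left of 0 in the dark in WT, and all 9 sulfur-deficiency points do in ml5 at day 0.

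Against WT at day 0, 32 of the 61 were lower and 13 higher in ml5 (18.8% and 19.5% of all genes), and 17 lower and 25 higher in ml2 (22.6% and 21.9%). In ml5 the aliphatic core had all 6 lower (median -1.28) and chain elongation 7 of 8 lower (median -0.56), beside a median of 0 over all genes. IPMI1, an isopropylmalate isomerase subunit, was lower at -1.54 ± 0.0552 (34.9 against 102 CPM), the carrier BASS5 at -1.26 ± 0.0765, the sulfotransferase SOT17 at -1.47 ± 0.0735 and CYP79F2 at -1.76 ± 0.132. GSTU20, at -0.15 ± 0.0589 (adjusted p = 0.0480), lost its call without any 1 of the WT or ml5 day 0 libraries and without most others. In ml2 the indolic and shared core had 6 higher and 0 lower of 10, where 1 was lower without ml2 day 0 replicate 1. GSTF9 (0.59 ± 0.0368), GSTF10 (0.81 ± 0.0587), CYP79B2 (0.65 ± 0.0693) and CYP79B3 (0.55 ± 0.0639) were among the 6.

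Genes that modify the indole ring were divided at day 0. Of the 6 tested CYP81F and IGMT genes, CYP81F2, IGMT1 and IGMT2 were higher in both lines, CYP81F3 was lower in both (-1.02 ± 0.157 in ml2 and -0.63 ± 0.156 in ml5), IGMT5 was higher in ml2 (0.71 ± 0.167) and CYP81F1 in ml5 (0.48 ± 0.0862). IGMT1, an indole glucosinolate methyltransferase, was 11.8 CPM in WT, 75.8 in ml2 and 74.6 in ml5 (2.69 ± 0.0849 and 2.66 ± 0.0857), and CYP81F2 was 21.5, 59.5 and 44.9 CPM (1.47 ± 0.0795 and 1.07 ± 0.0822). IGMT1 and IGMT2 are similar tandem copies, so their split is uncertain. Of 5 side-chain oxygenases of the aliphatic branch, 3 were lower in ml5, beside 18.8% of all genes. They were FMO GS-OX3 at -1.50 ± 0.0832, FMO GS-OX1 at -1.22 ± 0.0798 and FMO GS-OX5 at -0.28 ± 0.0587. FMO GS-OX2 (-0.09 ± 0.44) and FMO GS-OX4 (0.23 ± 0.153) did not pass the test. MYC2 was higher in ml2 (0.99 ± 0.0535) and MYC4 lower in both lines (-0.86 ± 0.104 in ml2 and -1.26 ± 0.114 in ml5).

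Sulfur-deficiency response genes were listed because glucosinolates hold much sulfur, and this list too was chosen with earlier results known. All 9 tested were lower in ml5 than in WT at day 0 (median -1.55), and 7 of 9 in ml2 (median -0.58), beside 18.8% and 22.6% of all genes. APR2, an adenylyl sulfate reductase of sulfate assimilation, was 302 CPM in WT, 115 in ml2 and 87.0 in ml5 (-1.39 ± 0.0484 and -1.79 ± 0.0498), and APR1 was 143, 104 and 42.9. In the dark in WT 8 of the 9 fell (median -1.77), beside 39.9% of all genes, APR2 by 1.85 ± 0.0487, and LSU2 rose by 0.93 ± 0.0855.

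At day 7, 43 of the 61 were lower and 6 higher in ml5 than in WT (24% and 19.3% of all genes), and 23 lower and 14 higher in ml2 (12.4% and 13.4%). IPMI1 (-1.13 ± 0.0546), IPMI2 (-1.02 ± 0.0619), CYP79F2 (-1.30 ± 0.0945), GGP1 (-0.98 ± 0.0559), CYP81F1 (-1.05 ± 0.0526) and GTR2 (-0.74 ± 0.0453) were lower in ml5. In ml2, CYP79B2 was higher (1.40 ± 0.0574, 145 against 55.0 CPM) where CYP83B1 was lower, and MYC2 was lower (-0.92 ± 0.0504). Between the lines, 40 were lower and 4 higher in ml5 than in ml2 at day 0 (14.5% and 14.2% of all genes), and 40 lower and 5 higher at day 7 (22.4% and 19%). In tests of the difference in dark response from WT, 13 of the 61 were higher and 20 lower in ml2 (13.4% and 15.6% of all genes), or 6 and 28 with library sizes alone, and 15 higher and 19 lower in ml5 (17.4% and 18.1%).

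Genes whose levels ran most like a member over the 18 libraries were ranked by Pearson's r on log2 CPM among 8382 abundant genes, as a description in which the day 0 to day 7 step is shared by most genes. For TGG1 they were OEP6 (0.998), CAB1 (0.997) and OEP16-1 (0.996), and 1897 genes exceeded 0.9. MYB28 ran most like ABCF5 (0.991), with 1093 genes over 0.9, and CYP83A1 most like DJ1F (0.995), with 1251. CYP83B1 had 10 such genes, led by AT2G37710 (0.981), KAN3 (0.954) and HSFA8 (0.932).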

How the data were processed

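TruSeq libraries were prepared from Trizol-extracted leaf RNA, per the labels' protocols. The submitters' processing notes name TopHat2 2.0.12, Bowtie2 2.0.6, TAIR10 and, without a role, IRGSP-1.0. The deposited table holds the authors' estimated counts per gene, judged from the values, 97.12% of which are whole. The sources used here do not give the counting tool or its use of strand. Table columns mark the groups by CK and D, taken as day 0 and day 7. The protocol mentions doxycycline, which no sample label gives.

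Counts were rounded, filtered with filterByExpr (minimum count 10), scaled by TMM and fitted as 6 group means in edgeR 4.0.16 (R 4.3.3) by quasi-likelihood, giving 11 comparisons with two-sided p-values adjusted by Benjamini-Hochberg over 19493 genes, threshold 0.05. SE come from that fit. A group of 3 against 3 cannot go below 0.1 in an exact permutation test. The floor of 3 counts covers counting error only. Lengths, promoters and motifs come from RefSeq TAIR10.1, whose nuclear chromosomes are those of TAIR10. The fit was checked on simulated data.

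Members and lists were chosen with earlier results of these data known. Genes named besides the members had, in a comparison, one of the 5 smallest adjusted p of their list or belonged to a count of 5 or fewer, and their values in other comparisons are given beside. The other MYB, CYP81F, IGMT and FMO GS-OX genes were added to complete their families after their values were seen. AOP2 was not analysed here. Alternatives were RLE factors, library sizes alone, 2 other filters, DESeq2 1.42.0, limma-voom (limma 3.58.1), organelle genes removed before scaling, a fit of only the groups compared, the replicate number as a block, and each library left out. Replicate numbers did not pair the samples.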

Additional observations from a re-analysis of the deposited data

Results flagged for a closer look

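Flagged here are pathway genes whose dark response differed from that of WT in a test of the difference itself (edgeR interaction contrast, Benjamini-Hochberg adjusted), the gene with the smallest adjusted p of each list and line. Values are differences of log2 changes ± SE. No cause was tested.

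The dark response of MYC2 was lower than in WT, by -1.91 ± 0.0735 in ml2 (adjusted p = 2.35e-18) and by -1.08 ± 0.0746 in ml5 (adjusted p = 4.58e-13). IGMT1 differed by -2.67 ± 0.113 in ml2 and -2.96 ± 0.114 in ml5. Its level before the dark was 75.8 and 74.6 CPM in the lines and 11.8 in WT. The transporter GTR2 differed by -0.50 ± 0.0677 and -0.62 ± 0.0688, and PEN2 by -0.46 ± 0.0554 and -0.92 ± 0.0556. APR2 went the other way, by 0.94 ± 0.0703 in ml2 and 1.42 ± 0.071 in ml5, from day 0 levels below WT.

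In ml2, ESM1 differed by 1.38 ± 0.0534, GSTF9 by -0.70 ± 0.0526, GSTU20 by 0.60 ± 0.0982 and IPMI2 by 0.38 ± 0.0813. In ml5, BASS5 differed by 0.61 ± 0.111, AT2G31790 by 0.65 ± 0.101, GGP1 by -0.82 ± 0.0801 and PEN3 by -0.90 ± 0.129.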

How the results depend on the processing

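Of the counts recomputed under the alternatives, 964 stayed within 1.5 times and 8 did not. Library sizes alone gave 1 member higher in the dark in WT (0 with TMM), 3 lower in ml2 against WT at day 0 (5), 6 pathway genes higher in the dark response of ml2 minus WT (13, with 28 against 20 lower), and 2 higher in ml5 against ml2 at day 0 (4). The last count was also 2 with only the libraries compared. Library sizes alone turned CYP83B1 in the dark to 0.097 in WT and 0.02 in ml5, and CYP83A1 in ml2 against WT at day 0 to 0.007. They also ended the calls of APR2 in the dark in ml5 (-0.02), MBP1 (-0.08) and SOT18 (-0.07) in WT, PEN2 in ml2 (-0.05), and SOT18 in ml2 against WT at day 0 (-0.16).

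Leaving out 1 library moved the members higher in ml2 against WT at day 7 from 3 to between 3 and 5 (5 without ml2 day 7 replicate 1), the pathway genes higher in the dark response of ml2 minus WT to between 8 and 16 (8 without WT day 7 replicate 2), and those higher in ml5 against ml2 at day 0 to between 2 and 5 (2 without ml5 day 0 replicate 3). Of 206 changes of named pathway genes, 200 kept their call and direction under every alternative, and GSTU20 in ml5 against WT at day 0 lost its call with library sizes alone (-0.13), under the replicate block (adjusted p = 0.0506) and without single libraries (-0.17 to -0.12).

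Same-numbered libraries did not deviate together (correlations of -0.121 to 0.0772, and 5 of 18 libraries correlated best with their own number). With the replicate block, 22 of 22 pathway counts stayed within 1.5 times, and 15887 genes were called in the dark in WT against 15964 without it. Depth limits MYB29 at day 7 and MYB122 and BGLU30 at day 0, which rest on a few counts.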
